A study of Homo sapiens with 24 samples.

Results

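Interferon-stimulated genes were followed through a knockdown of PRKCQ in lymphoma T cells. The group was chosen by symbol, with earlier results of these data known. It holds 59 genes that type I interferon is known to switch on, out of 58780 genes in the table for the phorbol ester TPA. The table for the vehicle DMSO holds 13025 genes and lists 44 of the 59. A p-value was given for 43 of them in DMSO and for 58 in TPA, where 57 also have an adjusted p. The members were sorted by role into 37 effectors, 7 genes of the ISG15 conjugation system, 4 of ADP-ribosylation, 6 RNA sensors, 4 STAT or IRF regulators and the chemokine CXCL10.

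Interferons are secreted when a cell senses foreign or misplaced nucleic acid, and they signal through JAK kinases to a complex that includes STAT2 and IRF9. That complex binds the interferon-stimulated response element, ISRE, in promoters, while the gamma-activated site, GAS, is the element through which interferon gamma acts. Some of these genes, the IFIT genes and ISG15 among them, can also be switched on directly by IRF3 without secreted interferon. PRKCQ encodes protein kinase C theta, which passes signals of the T cell antigen receptor on to NF-kappaB and other factors, and TPA activates protein kinase C enzymes directly.

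The 24 RNA sequencing libraries came from MyLa, a mycosis fungoides line, and HuT 78, a Sézary syndrome line, with 3 libraries for each line, hairpin and treatment. Cells carried either the non-targeting control hairpin (NTC) or shPRKCQ, and were given DMSO or 10 ng/ml TPA for 24 h. For the knockdown, doxycycline at 1 µg/ml was present for at least 72 h beforehand, per the labels' protocols, which do not say whether NTC cells received it; if they did not, the drug and the hairpin cannot be told apart. The sources do not say whether each modified line was a clone or a pool. Each comparison set 6 shPRKCQ against 6 NTC libraries with both lines together, so no value shows MyLa and HuT 78 apart, and no value per library was used here. The labels number the replicates 1 to 3 without saying whether they came from separate cultures, so the p-values may rest on technical spread. The sources do not say whether cell line was a term in the authors' model; if it was not, the spread also holds the difference between the lines.

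PRKCQ checked the labels: the authors' deposited table put it at 0.231 times the NTC level in DMSO, and the TPA table at 0.237 times. Of 10 T cell markers, all had an adjusted p in TPA, while 5, among them CD3D and TRAC, are in the DMSO table. Of markers of other cells, CLEC4C, S100A8 and KRT14 have no fold change in TPA, 1 of 5 myeloid markers and 1 of 3 plasmacytoid dendritic markers have an adjusted p there, and 3 of 4 B cell markers and 4 of 5 epithelial or stromal markers do. No marker was called, but CD79B (B cell) was at -1.10 in TPA (unadjusted p = 0.000773), and CD5 (T cell), KRT5 and COL1A2 (epithelial or stromal) were at 0.56, 0.77 and 0.80 (unadjusted p = 0.0167, 0.0437 and 0.0369) in the authors' deposited table. Marker levels per library were not used, and their part in any result was not tested. Below, fold changes are shPRKCQ over NTC on a log2 scale as the authors deposited them, and a gene was called at the authors' adjusted p under 0.05. The standard error (SE) and 95% interval of each value were computed from its fold change and p-value and are called implied.

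The promoters of 6 members with an unadjusted p under 0.05 in DMSO are shown first. All 6 hold the ISRE, as do 30 of the 46 members in the promoter table, or 65.2%. Each is the 160 bases before a RefSeq start (GRCh38.p14), 5′ to 3′ on the gene's plus strand, with each match to the ISRE letters in capitals: GAAA, any 2 bases and GAAA again, or, read from the other strand, TTTC, any 2 bases and TTTC. IFIT2 and OASL are not in the promoter table.

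IFIT1, chr10:89392463-89392622: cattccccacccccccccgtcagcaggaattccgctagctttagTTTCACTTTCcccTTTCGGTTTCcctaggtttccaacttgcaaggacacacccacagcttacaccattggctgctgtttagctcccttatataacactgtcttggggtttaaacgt
IFIT3, chr10:89327837-89327996: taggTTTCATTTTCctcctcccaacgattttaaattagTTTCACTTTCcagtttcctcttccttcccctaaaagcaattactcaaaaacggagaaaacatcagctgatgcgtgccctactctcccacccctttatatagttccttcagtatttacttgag
IFIT5, chr10:89414408-89414567: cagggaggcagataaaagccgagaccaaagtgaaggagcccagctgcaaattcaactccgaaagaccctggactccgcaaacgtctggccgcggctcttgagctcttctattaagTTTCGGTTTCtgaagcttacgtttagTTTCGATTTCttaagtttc
ISG15, chr1:1013337-1013496: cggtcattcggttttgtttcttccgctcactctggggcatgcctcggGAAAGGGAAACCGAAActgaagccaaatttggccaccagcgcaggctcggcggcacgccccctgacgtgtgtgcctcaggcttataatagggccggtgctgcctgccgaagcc
IFI44, chr1:78649629-78649788: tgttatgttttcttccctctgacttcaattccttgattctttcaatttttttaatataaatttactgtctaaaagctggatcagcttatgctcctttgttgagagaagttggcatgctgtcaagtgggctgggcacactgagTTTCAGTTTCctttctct
ISG20, chr15:88638856-88639015: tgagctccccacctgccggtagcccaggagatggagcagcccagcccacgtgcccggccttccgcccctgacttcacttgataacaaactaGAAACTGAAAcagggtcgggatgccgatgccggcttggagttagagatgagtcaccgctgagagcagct

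The matches in IFIT1 began 116 and 103 bases before the start, and those in ISG15 began 113 and 107 bases before it and share 4 letters. Members near 0 in DMSO differ in this: IFI6 has 3 matches and IFITM3, IFI27, BST2 and TRIM21 have 2 each. IRF1, shown as a regulator near 0, lies on the minus strand, and its promoter holds no ISRE match but 1 match to the GAS letters TTCNNNGAA, in capitals, 124 bases before the start.

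IRF1, chr5:132490774-132490933: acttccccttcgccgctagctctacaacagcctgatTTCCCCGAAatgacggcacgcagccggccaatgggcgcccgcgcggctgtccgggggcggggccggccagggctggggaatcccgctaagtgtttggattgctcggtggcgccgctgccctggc

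In vehicle-treated cells the highest values belonged to antiviral effectors, and above all to the IFIT genes, whose proteins bind viral RNA and block its translation. The 4 IFIT members lay between 1.08 and 1.29 in the authors' deposited table, that is between 2.11 and 2.44 times the NTC level. The regulators STAT2, IRF9, IRF1 and IRF7 lay between -0.10 and 0.08 in the same deposited table. No member was called in DMSO: 0 of 43, where 0.108% of all genes were called. At an unadjusted p under 0.05 there were 8 members, all higher in shPRKCQ cells, or 18.6% of 43. Of all genes 1.37% were higher and 1.67% lower at that level. The list was chosen with earlier results of these data known, and 4 of the 8 are neighbouring IFIT genes. The shares are thus a description and no test. The smallest adjusted p of a member was 0.441, that of IFIT2. When the z-values were divided by their robust SD over all genes, 5 members were called, IFIT2, IFIT1, IFIT3, ISG15 and IFI44, but so were 109 genes in all in place of 14. In bulk samples, fewer cells that express a gene and less of its RNA per cell cannot be told apart.

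IFIT2 (ENSG00000119922.9, chromosome 10, 89283694 to 89309276, plus strand, GRCh38) was at 1.29 in the authors' deposited table, with an implied SE of 0.42 and a 95% interval of 0.46 to 2.11. Its unadjusted p of 0.00224 was the 66th smallest of 13007. IFIT1 (ENSG00000185745.9), which recognises viral RNA by its 5′ end, was at 1.25 in the authors' deposited table, with an implied SE of 0.44 and p = 0.00415. IFIT3 (ENSG00000119917.13), which stabilises IFIT1 and links it to signalling, was at 1.08 in the authors' deposited table, with an implied SE of 0.38 and p = 0.0046. IFIT5 (ENSG00000152778.8), a further RNA-binding member, was as high, at 1.24 in the authors' deposited table, but with a wider implied SE of 0.56 and p = 0.0253. The 4 genes thus differed among themselves by less than any of their implied SEs.

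The IFIT genes form a cluster on chromosome 10, from 89283694 to 89421001, and the genes around it were near 0. The neighbours were looked up after the values were seen, as the nearest protein-coding genes outside it with values in both tables. FAS, the death receptor gene on the left, was at 0.10, and PANK1, on the right, was at -0.06 in the authors' deposited table. LIPA, which encodes lysosomal acid lipase, spans most of the cluster on the opposite strand and was at -0.05 in DMSO and -0.08 in TPA by the authors' deposited tables. It shares 65 exon bases with IFIT2 and 0 with IFIT1 and IFIT3, and whether counting used strand is not stated.

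Outside the cluster, 4 more members were under 0.05 before adjustment. IFI44 (ENSG00000137965.10, chromosome 1, 78649796 to 78664078), an interferon-induced cytoplasmic protein, was at 0.98 in the authors' deposited table, with an implied SE of 0.36 and p = 0.00725. ISG15 (ENSG00000187608.9, chromosome 1, 1001138 to 1014540), the ubiquitin-like protein that is attached to other proteins, was at 0.77 in the authors' deposited table with an implied SE of 0.28 and p = 0.00548. OASL (ENSG00000135114.12, chromosome 12, 121019111 to 121039242), which strengthens RIG-I signalling, was at 0.89 in the authors' deposited table with an implied SE of 0.39 and p = 0.0215. ISG20 (ENSG00000172183.14, chromosome 15, 88636153 to 88656483), an RNA exonuclease, was at 0.52 in the authors' deposited table with an implied SE of 0.25 and p = 0.0379. All 4 had 95% intervals above 0 before any adjustment over genes, from 0.26 for IFI44 and 0.23 for ISG15 down to 0.13 for OASL and 0.03 for ISG20 at their lower ends.

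**Figure D1:**
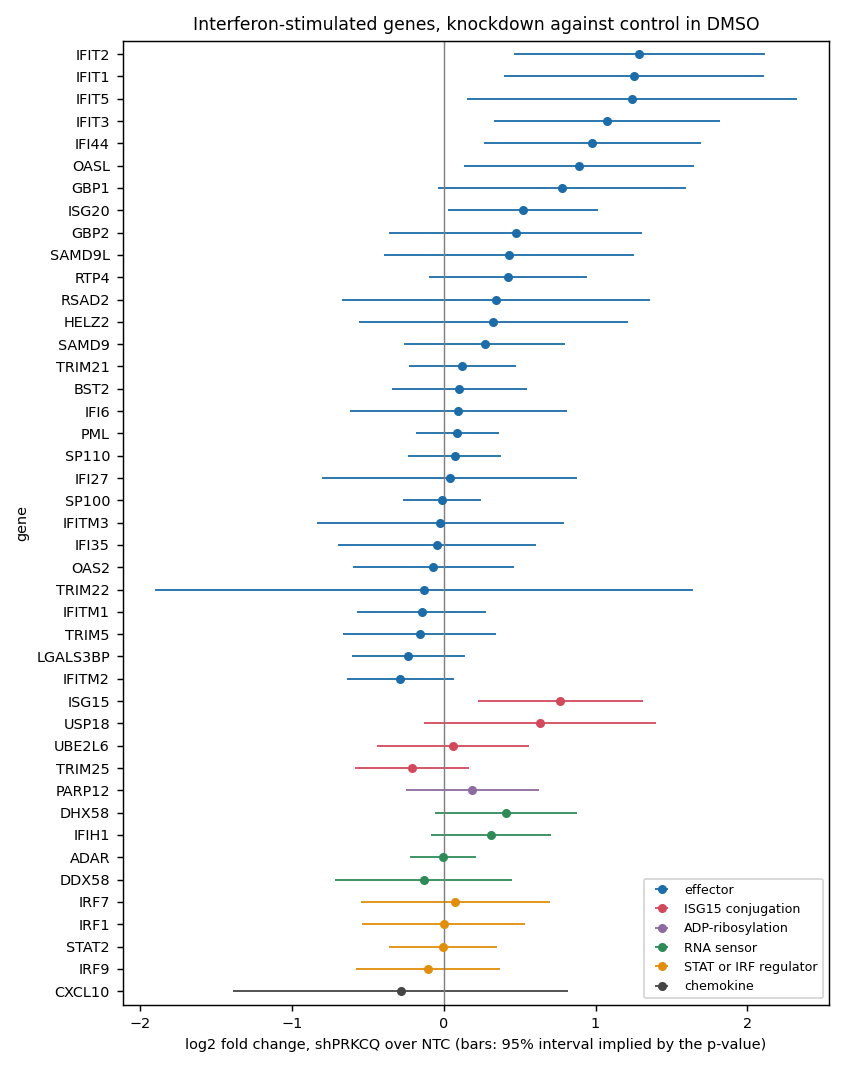
Log2 fold change (shPRKCQ over NTC) of the 43 members with a p-value in DMSO, 1 line per gene, coloured by role; bars are 95% intervals implied by the authors' p-values. The 4 IFIT genes lie at 1.08 to 1.29, while the 4 STAT or IRF regulators lie between -0.10 and 0.08.

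The effectors differed among themselves in DMSO. Of 29 with a p-value 20 were above 0 and 9 below, with a median of 0.12 in the authors' deposited table; over all genes 52.3% were above 0 and the median was 0.0075. GBP1 and GBP2, guanylate-binding GTPases that interferon gamma also induces, were at 0.78 and 0.47 by the authors' deposited table (unadjusted p = 0.0617 and 0.264). Of their neighbours chosen by that same rule, which are no members, GBP3 was at 0.38 (unadjusted p = 0.456) and GBP4 at 0.85 (unadjusted p = 0.00804) in the authors' deposited table. RTP4 was at 0.42, HELZ2 at 0.33, SAMD9L and SAMD9, which restrict poxviruses and cell growth, at 0.43 and 0.27, and RSAD2, the radical SAM enzyme viperin, at 0.34 in the authors' deposited table. No member in this set had an unadjusted p under 0.05.

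The other effectors with a p-value lay between -0.29 and 0.12. IFITM1, IFITM2 and IFITM3, membrane proteins that hinder viral fusion, were at -0.15, -0.29 and -0.02 in the authors' deposited table. Their transcripts are near copies of each other, and IFITM1 shares 32.5% of its exon bases with IFITM2 on the same strand, so the split of reads between them is uncertain. The nuclear body genes SP100, SP110 and PML lay between -0.01 and 0.09 in the authors' deposited table, with implied SEs of 0.13, 0.16 and 0.14. Among the TRIM ubiquitin ligases, TRIM21 was at 0.12, TRIM22 at -0.13, TRIM25 at -0.21 and TRIM5, which targets retroviral capsids, at -0.16 in the authors' deposited table. OAS2, which makes the 2-5A messenger that activates RNase L, was at -0.07 in the authors' deposited table, where its relative OASL stood at 0.89. BST2, or tetherin, was at 0.10, IFI6 at 0.10, IFI27 at 0.04, IFI35 at -0.05 and LGALS3BP at -0.23 in the authors' deposited table.

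In the ISG15 conjugation system the modifier and its remover had the higher values. USP18, the protease that removes ISG15 and blocks the interferon receptor, was at 0.63 in the authors' deposited table (implied SE 0.39, unadjusted p = 0.104). UBE2L6, the conjugating enzyme, was at 0.06 and TRIM25, counted here as a ligase, at -0.21 in the same deposited table. The activating enzyme UBA7 and the ligases HERC5 and HERC6 are not in the DMSO table. In TPA these 3 were at -0.19, 0.08 and 0.10 in the authors' deposited table.

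Of the 4 RNA sensors with a p-value in DMSO, 2 were above and 2 below 0, and 0 had an unadjusted p under 0.05. DHX58, or LGP2, a helicase that modulates the other sensors, was at 0.41 in the authors' deposited table in DMSO (implied SE 0.24, unadjusted p = 0.0884). IFIH1, or MDA5, which detects long double-stranded RNA, was at 0.31 in the authors' deposited table (implied SE 0.20, unadjusted p = 0.124). DDX58, or RIG-I, which detects RNA with a 5′ triphosphate, was at -0.13 in the authors' deposited table (implied SE 0.30, unadjusted p = 0.657). ADAR, the enzyme that edits adenosine in double-stranded RNA, was at -0.01 in the authors' deposited table with an implied SE of 0.11. EIF2AK2, the kinase PKR, and ZBP1, which senses Z-form nucleic acid, are not in the DMSO table and were at 0.04 and -0.06 in the authors' deposited TPA table.

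The regulators were near 0 in both treatments. STAT2 was at 0.00 in DMSO and 0.08 in TPA, IRF1 at 0.00 and -0.01, IRF7 at 0.08 and 0.10, and IRF9 at -0.10 and 0.06 by the authors' deposited tables. Their unadjusted p-values were at least 0.674 in DMSO and 0.655 in TPA. The 95% interval for STAT2 in DMSO ran from -0.36 to 0.35 and that for IRF7 from -0.54 to 0.70, so changes within these ranges were not excluded. IRF9 shares 48.4% of its exon bases with the gene AL136295.5 on the same strand, so its reads may be divided.

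Under TPA, no member was called, 0 of 57, where 0.113% of all genes were. At an unadjusted p under 0.05 there were 3 members higher and 1 lower, where 2.05% of the 19417 genes with an adjusted p were higher and 1.93% lower. Of 58 members with a p-value 36 were above 0 and 22 below, with a median of 0.06 in the authors' deposited table. Of the 19417 genes with an adjusted p 53.0% were above 0 and the median was 0.01. Of all 34024 genes with a p-value 58.3% were above 0. The smallest adjusted p of a member was 0.99998.

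Of the 3 higher members, RSAD2 (ENSG00000134321.11, chromosome 2, 6865806 to 6898239) was at 0.76 in the authors' deposited table, with an implied SE of 0.35 and an unadjusted p of 0.0319. GBP1 (ENSG00000117228.9, chromosome 1, 89052319 to 89065360) was at 0.66 in the authors' deposited table with an implied SE of 0.32 and p = 0.0393. ISG15 was at 0.55 in the authors' deposited table with an implied SE of 0.25 and p = 0.0296, the only member under 0.05 before adjustment in both treatments. The IFIT genes, highest in DMSO, were at 0.48 (IFIT1), 0.28 (IFIT3), 0.26 (IFIT2) and 0.20 (IFIT5) in the authors' deposited table, with unadjusted p-values from 0.179 to 0.606. IFI44, IFI6 and ISG20 were at 0.52, 0.33 and 0.34 by the authors' deposited table (unadjusted p = 0.0991, 0.286 and 0.144). USP18 was at 0.02 and DHX58 at 0.21 there. CMPK2, a nucleotide kinase whose gene lies head to head with RSAD2, was at -0.08 in the authors' deposited table.

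The lower member was CXCL10 (ENSG00000169245.5, chromosome 4, 76021117 to 76023497, minus strand), the chemokine that draws CXCR3-positive T cells. The authors' deposited table had it at -0.96, or 0.52 times the NTC level, with an implied SE of 0.41 and an unadjusted p of 0.0191. It was the lowest of the 58 members in TPA, and at -0.28 with an implied SE of 0.56 in the authors' deposited DMSO table. Its promoter holds 1 ISRE match, in capitals in the 30 bases shown, 221 bases before the start.

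CXCL10, chr4:76023699-76023728: tcatgttttgGAAAGTGAAAcctaattcac

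IFNG, the gene of interferon gamma, which induces CXCL10 and the GBP genes, was at -1.59 in the authors' deposited TPA table. Its unadjusted p was 0.00259 and its adjusted p 0.43. GBP1 and GBP2 were at 0.66 and 0.50 there, and CXCL10 at -0.96. Whether IFNG had a part in any of these values was not tested.

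**Figure D2:**
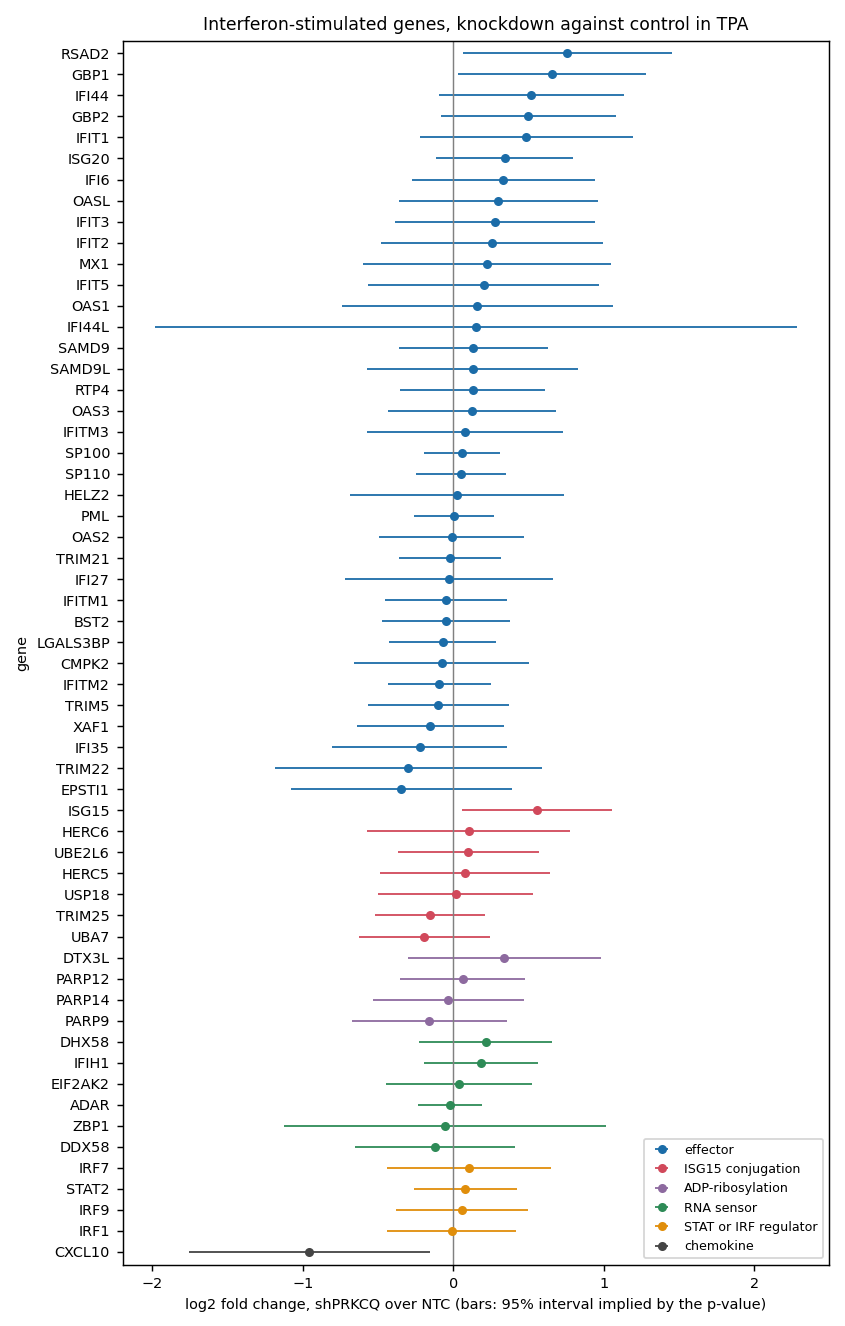
Log2 fold change (shPRKCQ over NTC) of the 58 members with a p-value in TPA, 1 line per gene, coloured by role; bars are 95% intervals implied by the authors' p-values. RSAD2 at 0.76 is the highest and CXCL10 at -0.96 the lowest, and all but 4 intervals cross 0.

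The 15 members outside the DMSO table have TPA values alone; of genes with an adjusted p in TPA, 75.4% of members and 67.0% of all genes are in the DMSO table. They included MX1, a dynamin-like GTPase against influenza virus, at 0.22, OAS1 and OAS3 at 0.16 and 0.12, EPSTI1 at -0.35 and XAF1, which promotes apoptosis, at -0.15 in the authors' deposited table. The ADP-ribosylation genes PARP9, PARP14 and DTX3L, a ligase that works with PARP9, were at -0.16, -0.03 and 0.34 in the authors' deposited table, while PARP12 was at 0.19 in DMSO and 0.06 in TPA. Of the 15, 8 were above 0 and none was under 0.05 before adjustment; the lowest p was 0.303. PARP9 and DTX3L start head to head and share 217 exon bases on opposite strands. MX2, the nuclear-pore GTPase active against HIV, has a fold change but no p-value in either table, as 18 genes do in DMSO and 61 in TPA; it was at 0.37 and 0.39 by the authors' deposited tables.

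The treatments were then set side by side over the 43 members in both tables, which share no library. Signs were the same for 36 of the 43, or 83.7%, against 64.2% of all 13007 genes in both tables. The value was farther from 0 in DMSO for 30 members, or 69.8%, against 49.7% of all genes. The members had a larger median implied SE than all genes, 0.274 against 0.172 in DMSO, and were chosen with earlier results known. Both shares are thus a description and no test. All 8 members under 0.05 in DMSO were above 0 in TPA and smaller there; as they were picked by their DMSO values, this is a description and no test. Their median was 1.03 in DMSO and 0.32 in TPA by the authors' deposited tables.

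The difference between the treatments was tested gene by gene. No member passed, 0 of 43, nor did any of the 13007 genes, where 0.438% of them and 0 members had an unadjusted p under 0.05. The member with the smallest p was IFIT2, with a difference, TPA minus DMSO, of -1.03, an implied SE of 0.57, a 95% interval of -2.14 to 0.08 and an unadjusted p of 0.068. IFIT5 differed by -1.04 with a wider interval of -2.37 to 0.29, IFIT3 by -0.80 and IFIT1 by -0.77. ISG15 differed by -0.21 (interval -0.95 to 0.52) and GBP1 by -0.12 (interval -1.15 to 0.90). RSAD2 differed the other way by 0.41 (interval -0.81 to 1.64). A difference between the treatments was thus not shown for any IFIT gene, though the intervals reach as far as -2.37. Whether either table's fold changes were shrunken toward 0 is not stated, so that both are on the same scale is assumed and was not tested. Median implied SEs in DMSO and TPA were 0.172 and 0.167 over all genes and 0.274 and 0.252 over the members. Some members with wide SEs differed more, such as TRIM22 (0.90 in DMSO, 0.45 in TPA) and IFIT5 (0.56 and 0.39). A smaller value in TPA may thus partly reflect a difference in scale.

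**Figure D3:**
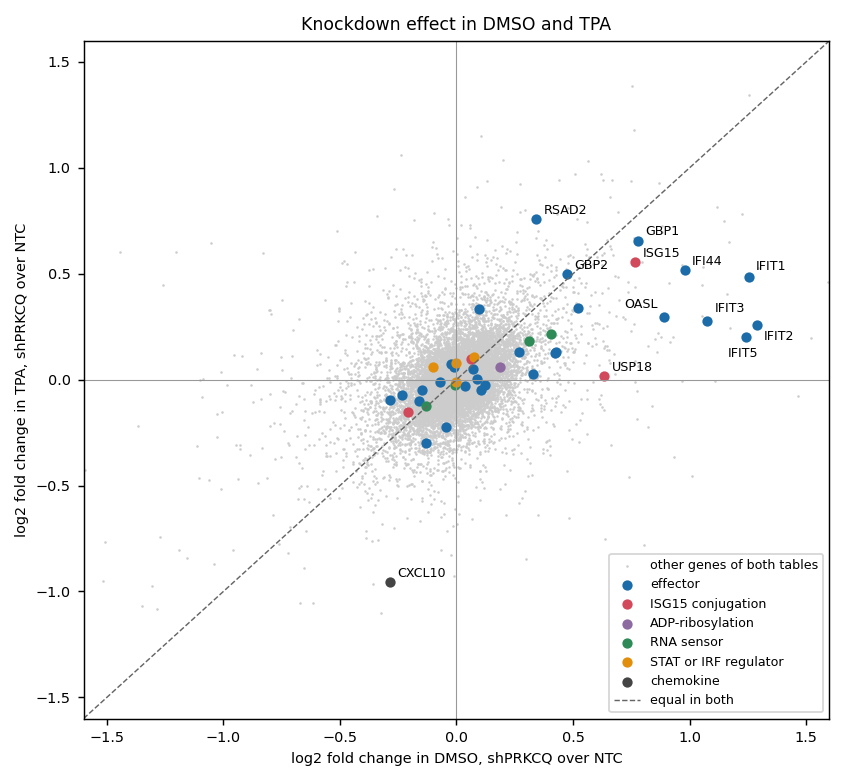
Knockdown effect in DMSO (x axis) against TPA (y axis), both as log2 fold change of shPRKCQ over NTC, for the 43 members coloured by role and the other genes in grey; 19 other genes lie beyond the axes. The IFIT genes lie right of the dashed line of equal values, RSAD2 above it, and CXCL10 low in TPA.

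Promoter letters were compared with the values as a description. RefSeq promoters of 300 bases, 250 before to 50 after a start, were found for 46 members, DDX58 under its newer symbol RIGI. An ISRE match on either strand was present in 30 of the 46, or 65.2%, against 4.38% of 27305 genes with a promoter and 3.57% of 35116 promoters. A GAS match was present in 11, or 23.9%, against 9.38% of genes and 7.66% of promoters. The GAS letters read the same on both strands, and ISRE and GAS matches share bases in 5 member promoters, those of BST2, EPSTI1, IFI27, IFITM1 and MX1.

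In DMSO, members with an ISRE match had the higher values. Of 21 such members 16 were above 0, with a median of 0.27 and a range of -0.28 to 1.25 in the authors' deposited table. Of 12 members without a match 4 were above 0, with a median of 0.00 and a range of -0.21 to 0.43 in the authors' deposited table. Of the 8 members under 0.05, 6 hold a match and the other 2, IFIT2 and OASL, are not in the promoter table. The 6 are 28.6% of the 21 members with a match, and 0 of 12 members without were under 0.05. Among other genes 4.24% of 354 with a match and 2.89% of 8743 without were. IFIT1, IFIT3 and IFIT5 are neighbouring genes and the list was chosen with earlier results known, so the shares are no test. Members with 2 or more matches and those with 1 had medians of 0.22 and 0.27 in the authors' deposited table. Matches alone did not go with high values: IFI6, with 3 matches in its promoter, was at 0.10 in the authors' deposited table, and 354 other genes with a match had a median of 0.0068, against 0.011 for 8743 other genes without. In TPA the medians were 0.12 for 30 members with a match and 0.04 for 16 without in the authors' deposited table. All 4 members under 0.05 there hold a match, as 65.2% of members in the promoter table do, and CXCL10 among them was lower. The 4 are 13.3% of the 30, against 4.10% of 610 other genes with a match and 3.47% of 14277 without.

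**Figure D4:**
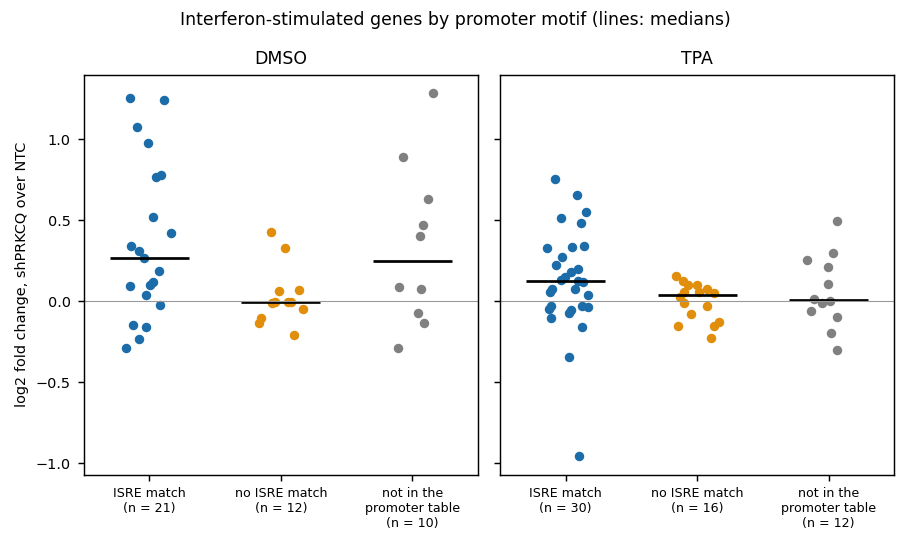
Log2 fold change (shPRKCQ over NTC) of the members in DMSO (left) and TPA (right), split by whether a RefSeq promoter holds an ISRE match; each point is a gene and lines are medians. In DMSO the points above 0.5 have a match or are not in the promoter table, and members without a match stay at or under 0.43.

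The upstream genes of the pathway, 47 by a separate list, gave no call in either treatment. In DMSO 29 were tested, 15 above and 14 below 0, with 0 higher and 2 lower under 0.05 before adjustment, where 52.3% of all genes were above 0, 1.37% higher and 1.67% lower. In TPA 42 had a p-value, 38 of them with an adjusted p. Of the 42, 12 were above and 30 below 0, with 1 higher and 2 lower under 0.05 before adjustment. Of the 19417 genes with an adjusted p 53.0% were above 0, 2.05% higher and 1.93% lower. Of all 34024 genes with a p-value 58.3% were above 0. Of 10 interferon genes none is in the DMSO table and 5 have a fold change in TPA, 2 above and 3 below 0. IFNB1 was at 0.34 and IFNL1 at 0.30 in the authors' deposited table, with unadjusted p = 0.466 and 0.403. IFNG, IFNL3 and IFNL2 were at -1.59, -0.13 and -0.07 there, with unadjusted p = 0.00259, 0.765 and 0.863. Only 2 of the 5, IFNG and IFNL1, have an adjusted p. The receptor genes IFNAR1 and IFNAR2 were at -0.09 and 0.10 in DMSO and -0.03 and 0.01 in TPA, by the authors' deposited tables. IFNAR2 shares 44.2% of its exon bases with AP000295.1 on the same strand, so its value is uncertain. The kinases JAK1 and TYK2, which sit on that receptor, were at 0.06 and 0.10 in DMSO and 0.21 and 0.08 in TPA, by the authors' deposited tables.

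Among the sensors of DNA and their adaptors, TREX1 stood lowest in both treatments. TREX1, the exonuclease that clears cytosolic DNA and so limits signalling by cGAS and STING, was at -1.27 in DMSO and -0.74 in TPA by the authors' deposited tables. Implied SEs were 0.53 and 0.36, unadjusted p-values 0.0157 and 0.0366, and neither passed the adjustment. All 1515 exon bases of TREX1 (ENSG00000213689.13, chromosome 3, 48465811 to 48467645) lie within exons of ATRIP on the same strand, so its reads cannot be told apart from those of ATRIP by position alone; ATRIP was at -0.04 and -0.13 by the authors' deposited tables. CGAS was at 0.13 and -0.18, TMEM173, which encodes STING, at 0.22 and -0.03, MAVS at -0.10 and -0.01 and IRF3 at 0.02 and 0.01 under vehicle and TPA respectively, from the authors' deposited tables. IRF5, a factor downstream of Toll-like receptors, was at -0.21 in DMSO (unadjusted p = 0.0202) and -0.14 in TPA (0.104) by the authors' deposited tables. SOCS1, the feedback inhibitor of JAK kinases, is not in the DMSO table and was at 0.40 in the authors' deposited TPA table (unadjusted p = 0.0252). Of the 6 feedback genes 2 were above and 4 below 0 in TPA, where SOCS3 was at -0.65 (unadjusted p = 0.094).

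**Figure D5:**
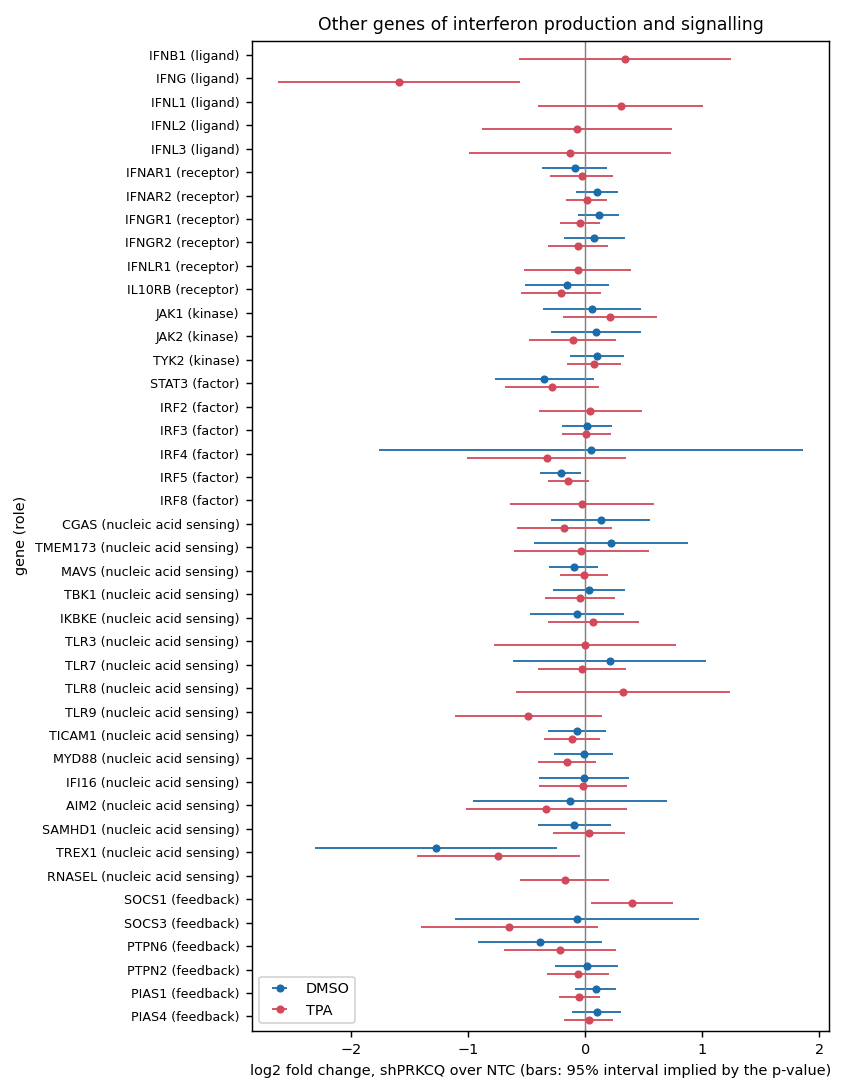
Log2 fold change (shPRKCQ over NTC) in DMSO (blue) and TPA (red) of 42 other genes of interferon production and signalling, with the role of each in brackets; bars are 95% intervals implied by the authors' p-values. Receptors, kinases and IRF3 lie close to 0, TREX1 lies at -1.27 and -0.74, and IFNG at -1.59 in TPA.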

How the data were processed

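RNA was poly(A)-selected and sequenced as strand-specific libraries, per the labels' protocols. STAR 2.5.3a, RSEM 1.3.0 and DESeq2 1.18.1 are named in the submitters' processing notes, as is the build, GRCh38, with no role or order; whether counting used strand is not given in the sources used here. The authors deposited 2 comparison tables whose columns give, for each gene, the log2 fold change with raw and adjusted p-value, per the file headers; no value per library was used, so depth is unknown and no count test was run. A negative log2 value was taken as lower in shPRKCQ, from PRKCQ in the deposited tables.

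Whether the authors shrank the fold changes in either table, and whether cell line was a term in their model, is not given in the sources used here. The implied SE is the fold change divided by the normal quantile of its p-value, and would be too small for a shrunken value that kept its p. Differences between treatments used both implied SEs (normal, two-sided, Benjamini-Hochberg adjustment over 13007 genes). The simulated data on which this was tried were drawn from those same SEs. In the real data 0.438% of genes had an unadjusted p under 0.05, and the robust SD of the difference z-values was 0.579. The simulation thus does not show how the test behaves on these data. Gene models are GENCODE 29 and promoters RefSeq. All members could be named: those with the smallest p and all regulators and sensors in full. One pathway gene is not reported here. Members and lists were chosen with earlier results of these data known. Scripts ran under Python 3.11.15 with pandas 2.3.3, scipy 1.17.1 and numpy 2.4.6.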

Additional observations from a re-analysis of the deposited data

How the results depend on the processing

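With the DMSO z-values divided by their robust SD over all genes, 0.753, 5 members were called in place of 0: IFIT2, IFIT1, IFIT3, ISG15 and IFI44, with adjusted p from 0.00981 to 0.0445, while the calls over all genes went from 14 to 109. The same rescaling gave 14 members in place of 8 at an unadjusted p under 0.05 in DMSO, and 0 members called in TPA, where all genes went from 22 to 113. The counts at an unadjusted p and those over all genes were added to these alternatives after seeing the data. In TPA, adjusting over the genes of both tables left 8 calls among all genes. Stricter and looser thresholds, a minimum fold change and the other adjustments left 0 members called in either treatment. Without the IFIT genes the list median was 0.08 in DMSO and 0.05 in TPA. For the difference between treatments 0 members passed on z-values or after rescaling, where 24 of all genes did and the lowest adjusted p of a member was 0.238, for IFIT2; rescaling put 6 members in place of 0, and 751 genes in place of 57, under an unadjusted 0.05. No paired analysis was possible because both files hold no value per library; leaving out replicates was not run for the same reason. Depth is unknown, so its limits could not be assessed.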
